A study of Rattus norvegicus with 20 samples.

Results

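Ethinyl estradiol and equilin were compared at the same oral dose in mesenteric arteries of female Sprague Dawley rats. The comparison rests on the 3 arrays labelled ethinyl estradiol and the 3 labelled equilin, 6 of the 20 arrays of the study, and on the 16865 of 35129 probes that carry 1 gene symbol, which name 12199 genes. All rats, controls included, were ovariectomised at 4 weeks of age, recovered for 2 weeks and were then gavaged daily for 3 weeks, so that they were 9 weeks old when the artery was taken. Ethinyl estradiol and equilin were each given at 0.15 mg/kg in 20% 2-hydroxypropyl-β-cyclodextrin. Beside them stand 3 arrays of estradiol benzoate at 0.15 mg/kg and 4 arrays of the cyclodextrin vehicle alone. The remaining arrays, 4 of tamoxifen and 3 of raloxifene, each at 3 mg/kg, helped to set the spread of the fit. RNA of 1 rat was hybridised to 1 single-colour CodeLink whole genome array, so replicates are rats, and their small number limits the precision of every value. The artery tree had been dissected free of veins and fat.

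Ethinyl estradiol is estradiol with an added ethynyl group, which slows its breakdown in the liver after a dose by mouth. Equilin is an estrogen of pregnant mares whose ring system carries an additional double bond and whose D ring carries a ketone. Both act through estrogen receptors, which are ligand-activated transcription factors found in endothelium and in arterial smooth muscle. Smooth muscle of small arteries sets vascular resistance by contracting, and its contraction depends on actin and myosin, on calcium channels and calcium stores, and on relaxing signals such as nitric oxide and prostacyclin.

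Levels are log2 intensities set to 0 at the median of each array, and a difference is the ethinyl estradiol level minus the equilin level, given with the standard error of the fit. A probe passed where limma's p, adjusted by the Benjamini-Hochberg method over all 24562 probes tested, was under 0.05. Lists were read through the brightest complete probe of each of 10191 genes.

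Among markers of the artery wall, Myh11, Tagln, Cnn1 and Lmod1 of smooth muscle and Pecam1, Vwf, Tek, Tie1 and Kdr of endothelium read above the array median on all 6 arrays, while the Acta2 probe read -0.19 ± 0.47 (SD, n = 3) under ethinyl estradiol and -0.45 ± 0.39 (SD, n = 3) under equilin. Adipoq, Fabp4 and Cfd of fat cells and Csf1r and C1qa of macrophages also read above the median on all 6. The arrays of the study fell into 2 sets by a class of 384 regularly spaced unnamed probes. Their medians were 0.69 to 1.41 under ethinyl estradiol, 0.94 to 1.84 under equilin and 0.90 in vehicle array 1, against -2.18 to -1.89 in vehicle arrays 2, 3 and 4, so both groups compared here lie in 1 set with only that vehicle array. Correlations between arrays ran from 0.973 to 0.988 within equilin and from 0.918 to 0.956 within ethinyl estradiol, where array 3 stood farthest from the rest.

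In the direct comparison 43 of 24562 probes passed (0.175%), 36 higher under ethinyl estradiol (0.147%) and 7 lower (0.0285%). Of these, 25 carried 1 symbol and stood for 24 genes. The genes higher under ethinyl estradiol included the heat shock gene Hspb1, the flavin monooxygenase gene Fmo2, 5 genes of the smooth muscle contractile list (Lmod1, Pln, Tpm1, Ldb3 and Synpo2) and the calcium channel gene Cacna1h, and the genes lower were Arsi, Pfkl, Oxtr and Muc20. At an unadjusted p under 0.05 limma counted 2360 probes. The number of calls depended on single arrays: without ethinyl estradiol array 1, 2 or 3 the count was 5, 35 or 6, and without equilin array 1, 2 or 3 it was 2, 2 or 8. Hspb1 passed in all 6 of these fits, Fmo2 and Lmod1 in 2, and Cacna1h, Tes, Atoh8, Ldb3 and Oxtr in 1, while the other named genes passed in none of them, and every named gene kept its sign. The spread was taken from all 20 arrays: with only the 6 arrays compared 0 probes passed (3472 unadjusted by limma), and without raloxifene array 3, which enters through the spread alone, 301 passed.

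**Figure D1:**
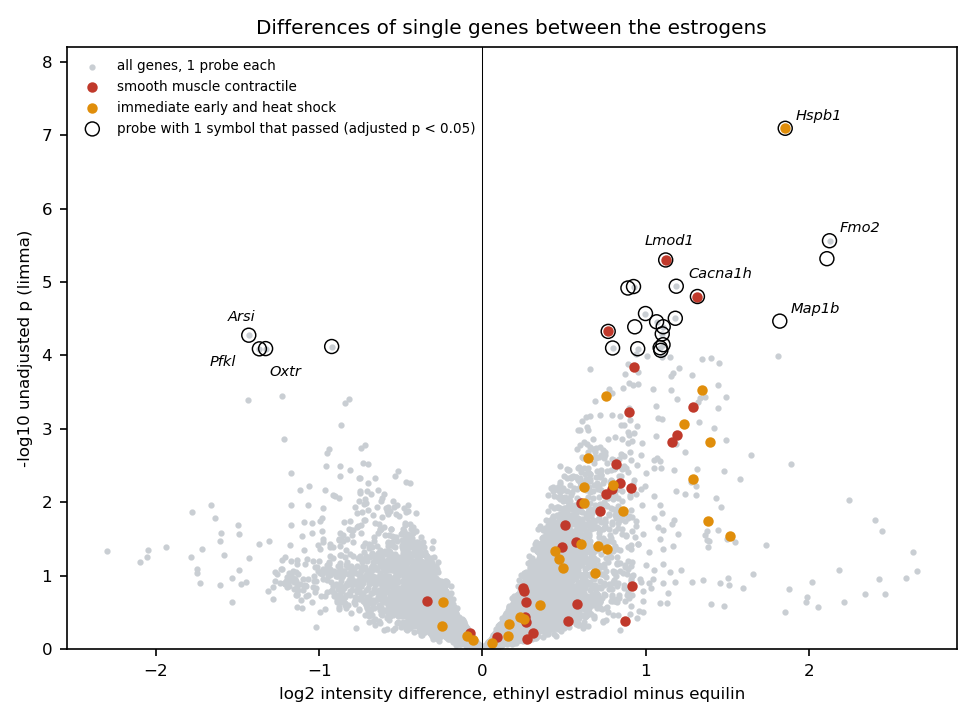
Each point is 1 gene, with the log2 intensity difference (ethinyl estradiol minus equilin) on the horizontal axis and the -log10 of limma's unadjusted p on the vertical axis; red and orange points are the 32 smooth muscle contractile and 30 immediate early and heat shock genes tested, and open circles are the 25 probes with 1 symbol that passed. Most circled points lie on the right, with Hspb1 highest at a difference of 1.85, and the 4 on the left include Arsi, Pfkl and Oxtr.

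Hspb1 encodes a small heat shock protein that binds actin filaments and is abundant in muscle. Its level was 7.55, 7.47 and 7.85 in the 3 ethinyl estradiol arrays and 5.97, 5.67 and 5.68 in the 3 equilin arrays. The groups did not overlap, and the 4 vehicle arrays at 6.32, 6.39, 6.76 and 7.18 lay between them. The difference of 1.85 ± 0.21 corresponds to 3.61-fold, with a 95% interval of 1.40 to 2.30 and limma's adjusted p = 0.0012. Under estradiol benzoate Hspb1 read 5.63, 6.32 and 5.87, near the equilin level.

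Fmo2, a flavin-containing monooxygenase that oxidises drugs and other foreign compounds, was measured by a pair of probes that both passed. The brighter probe read 5.27, 4.22 and 5.35 under ethinyl estradiol and 2.76, 2.60 and 3.11 under equilin. Ethinyl estradiol array 2 was the lowest of its group and still lay above every equilin array. The difference was 2.12 ± 0.32 (limma's adjusted p = 0.0169), and the other probe gave 2.11 ± 0.33. Vehicle arrays ranged from 3.02 to 4.06. Fmo2 belongs to a list of 29 tested xenobiotic genes with a median difference of -0.03. At an unadjusted p under 0.05 Fmo2 was the 1 gene higher and Cyp4b1 the 1 lower (8.03% and 2.26% of all genes). Cyp4b1 read 2.44, 2.26 and -1.91 under ethinyl estradiol against 2.35, 2.74 and 2.52 under equilin, so that ethinyl estradiol array 3 carried its difference.

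The smooth muscle contractile list stood higher under ethinyl estradiol. Lmod1, a leiomodin that nucleates actin filaments in smooth muscle, read 3.50, 3.51 and 3.68 under ethinyl estradiol against 2.17, 2.38 and 2.78 under equilin. Pln, phospholamban, which holds back the calcium pump of the sarcoplasmic reticulum, read 6.71, 6.70 and 6.63 against 5.05, 5.62 and 5.42. For Tpm1, a tropomyosin of the thin filament, the levels were 7.86, 8.10 and 8.25 against 7.32, 7.27 and 7.31. None of these 3 genes overlapped between the groups. Their differences were 1.12 ± 0.17, 1.32 ± 0.22 and 0.77 ± 0.14, with limma's adjusted p of 0.0176, 0.0242 and 0.0399. Equilin arrays lay below all 4 vehicle arrays for Pln (5.86 to 6.74) and Tpm1 (7.73 to 7.87), and ethinyl estradiol arrays lay above them for Lmod1 (2.46 to 2.92). Further probes of Pln gave 1.17 and 2.20 and a further probe of Tpm1 gave 0.83, none of which passed.

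A pair of further list members passed by a probe other than their brightest. Ldb3, a PDZ and LIM protein of the Z-disc, read 2.31, 2.15 and 2.45 under ethinyl estradiol and 1.12, 1.51 and 1.49 under equilin, a difference of 0.93 ± 0.17, while its 5 other probes ranged from 0.23 to 0.85. Synpo2, the actin-bundling protein myopodin, read 4.94, 5.04 and 5.03 against 4.19, 3.90 and 3.64, a difference of 1.09 ± 0.22, and its brightest probe gave 1.16 ± 0.31. Neither gene overlapped between the groups. Tes, Kank2 and Syne1, which are not members of the list, passed as well. Tes, a LIM protein of focal adhesions, differed by 0.89 ± 0.15 (its brightest probe by 0.36) and Kank2, which links adhesions to the cortex, by 0.80 ± 0.16. Syne1, a nesprin of the nuclear envelope, differed by 1.09 ± 0.21, and its other probe gave -0.14.

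Over the whole list, 3 of 32 tested members passed by their brightest probe, against 0.196% of all genes read the same way. At an unadjusted p under 0.05, 18 of the 32 were higher and 0 lower, against 8.03% higher and 2.26% lower among all genes. The groups did not overlap for 22 of the 32, all with ethinyl estradiol higher, against 19.9% of all genes, and 4.58% of all genes did not overlap with ethinyl estradiol lower. The median difference of the list was 0.66, or 0.56 above the median of all genes, which was itself 0.10 and became -0.00 with quantile normalisation. With that scaling the list median was 0.50, with 16 of 32 higher against 5.18% of all genes.

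Bright probes differed upward more often than dim ones in this comparison. With genes ranked by brightness into 4 equal groups, 11.3% of the brightest group were higher at an unadjusted p under 0.05, and 22 of the 32 list members lay there, 15 of which were higher. In the dimmest group the share was 4.87%. The part of brightness in the list's difference was not tested.

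Among members that did not pass, Pdlim3, a muscle PDZ and LIM protein, read 6.42 ± 0.22 (SD, n = 3) under ethinyl estradiol against 5.50 ± 0.10 (SD, n = 3) under equilin. Myocd, the coactivator that drives smooth muscle genes together with serum response factor, read -0.24, -0.29 and -0.13 against -1.75, -1.54 and -1.24, a difference of 1.29 ± 0.30 with limma's adjusted p = 0.104 (0.78 with an offset of 0.5 times the median, since the probe is dim). Vehicle arrays read -0.81 to 0.20 for Myocd and estradiol benzoate arrays -2.36 to -1.05. Ppp1r14a, an inhibitor of myosin phosphatase, differed by 0.90 ± 0.22, Jph2, a junctophilin that couples membranes to calcium stores, by 1.19 ± 0.31 and Myl9, the regulatory light chain of smooth muscle myosin, by 0.61 ± 0.21. The most familiar markers stood closer together. Tagln, transgelin, differed by 0.49 (95% interval 0.02 to 0.95), Myh11, the smooth muscle myosin heavy chain, by 0.26 (-0.33 to 0.86) at its brightest probe and Srf, serum response factor itself, by -0.08 (-0.39 to 0.24). Cnn1, calponin, differed by 0.31 (-0.94 to 1.56), with ethinyl estradiol array 3 at 4.33 and the other two at 7.02 and 6.99. Dimmer probes gave larger differences for both genes, 1.43 ± 0.31 for Myh11 (limma's adjusted p = 0.0772) and 0.70 ± 0.23 for Cnn1.

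**Figure D2:**
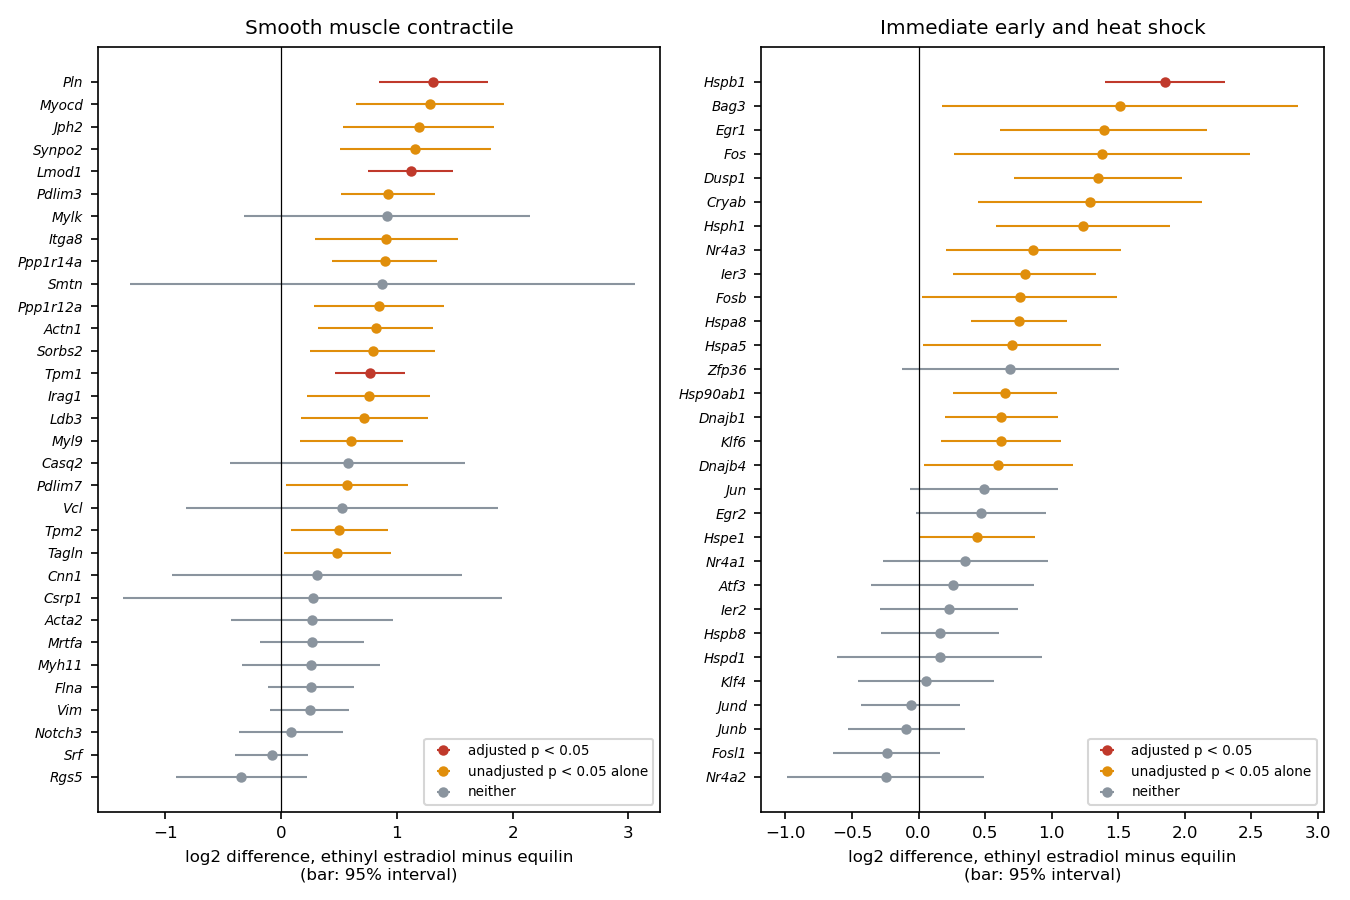
Log2 intensity differences (ethinyl estradiol minus equilin) of the 32 smooth muscle contractile genes and the 30 immediate early and heat shock genes tested, 1 gene per row, with bars for the 95% interval of limma's fit and colours for the test passed. In the left panel 30 of 32 points and in the right panel 26 of 30 points lie above 0, and the red points are Pln, Lmod1, Tpm1 and Hspb1.

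As the mean over members relative to each gene's average over all 20 arrays, the smooth muscle list stood at 0.36, 0.35 and 0.24 under ethinyl estradiol and at -0.35, -0.25 and -0.33 under equilin. Vehicle arrays lay between, at 0.06 to 0.17, with vehicle array 1 of the same array set at 0.11. Estradiol benzoate arrays, at -0.26 to -0.12, lay beside equilin.

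In the list of calcium channels and stores 1 gene passed. Cacna1h, the pore of a T-type calcium channel, read 3.15, 2.91 and 2.83 under ethinyl estradiol and 1.55, 2.00 and 1.79 under equilin, with vehicle arrays at 2.10 to 2.69 between them. Its difference was 1.19 ± 0.20 with limma's adjusted p = 0.0204. Of the 28 genes tested in the ion channel and calcium handling list, Cacna1h alone passed, 10 were higher and 1 lower at an unadjusted p under 0.05 (8.03% and 2.26% of all genes), and the median difference was 0.31, against 0.10 for all genes. Quantile normalisation gave 8 higher and 2 lower (5.18% and 5.05% of all genes), with a median of 0.19. Cacnb2, an L-type channel subunit, differed by 1.20 ± 0.25 and Cacna2d1, another channel subunit, by 0.88 ± 0.26. Itpr1, a channel that releases stored calcium, differed by 0.92 ± 0.34, and Kcnma1, the large-conductance potassium channel, by 1.55 ± 0.68 (a dimmer probe -0.21). Atp2a2, the reticulum calcium pump that phospholamban inhibits, differed by 0.84 ± 0.27, and Kcna5, a voltage-gated potassium channel, by 0.82 ± 0.24. Orai1, the store-operated calcium channel, was the member that leaned lower, at -0.45 ± 0.17. Cacna1c, the pore of the L-type channel, differed by -0.19 (95% interval -0.56 to 0.19). The mean level of this list was 0.21, 0.18 and -0.17 under ethinyl estradiol, with array 3 well below the other two, and -0.32 to -0.27 under equilin.

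The immediate early and heat shock list was also higher under ethinyl estradiol. Of 30 genes tested Hspb1 alone passed, 17 were higher and 0 lower at an unadjusted p under 0.05 (8.03% and 2.26% of all genes), and the median difference was 0.62, or 0.52 above that of all genes. Dusp1, a phosphatase that switches off MAP kinases and an early stress and glucocorticoid response gene, read 5.02, 5.40 and 5.14 against 3.96, 3.86 and 3.69, a difference of 1.35 ± 0.30 with limma's adjusted p = 0.0811. Vehicle arrays read 4.31 to 5.75 for Dusp1. Hspa8, the constitutive Hsp70 chaperone, differed by 0.76 ± 0.17 (0.50 with quantile normalisation), Hsph1, an Hsp110 chaperone, by 1.24 ± 0.31, Cryab, a small heat shock protein of muscle, by 1.29 ± 0.40, and Bag3, a co-chaperone, by 1.51 ± 0.64. Among the early transcription factors Egr1 differed by 1.39 ± 0.37 (another, dim probe -0.13) and Fos by 1.38 ± 0.53, whereas Junb differed by -0.09 (95% interval -0.53 to 0.35). The list level was 0.17 to 0.30 under ethinyl estradiol and -0.53 to -0.18 under equilin, and vehicle arrays spanned -0.02 to 0.31.

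Upstream sequences of 4 chaperone genes of this list are shown as examples. They hold the letters of the heat shock element, the site of heat shock factors, searched as GAANNTTC or TTCNNGAA on both strands (the orders overlap in runs). The search was chosen after these values were seen. The letters occur within 250 bases before the start in 9 of 23 list members matched in the RefSeq promoter table (39.1%). They occur in 13.2% of all 27457 promoters of that table, build GRCr8, and in 9.91% of those of genes tested. The list was assembled from heat shock and early genes, so its share does not bear on the comparison of the estrogens. The other members with the letters, Dnajb1, Hspa8, Hspb8, Hspd1 and Nr4a2, are not shown. The windows are 60 bases, 5′ to 3′ on the gene's strand, with the matched letters in capitals. They lie at chr12:26432377-26432436 (minus strand) for Hspb1, chr12:10427308-10427367 (plus strand) for Hsph1, chr1:192533302-192533361 (plus strand) for Bag3 and chr9:64084246-64084305 (plus strand) for Hspe1, a mitochondrial co-chaperonin that differed by 0.44 ± 0.21.
Hspb1: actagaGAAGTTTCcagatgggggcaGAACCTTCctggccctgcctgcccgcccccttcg
Hsph1: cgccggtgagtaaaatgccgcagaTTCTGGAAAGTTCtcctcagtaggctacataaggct
Bag3: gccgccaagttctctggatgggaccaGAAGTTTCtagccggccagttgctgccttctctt
Hspe1: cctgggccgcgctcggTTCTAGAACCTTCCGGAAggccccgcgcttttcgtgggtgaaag

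The CArG box, the site of serum response factor, was also searched after the values were seen. It lies in 2 of 25 matched smooth muscle promoters and in 4 of 23 of the immediate early and heat shock list, against 1.5% of all. Within the smooth muscle list it lies in 1 of 12 matched members that were higher at limma's unadjusted p under 0.05 and in 1 of 13 of the rest. The smooth muscle promoters are those of Srf, which did not pass, and Ldb3, shown because it passed, at chr16:9924697-9924756 (minus strand).
Ldb3: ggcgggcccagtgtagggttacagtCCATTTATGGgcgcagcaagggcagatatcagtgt

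The full estrogen response element, searched as GGTCANNNTGACC, is in 0 of 18 matched promoters of genes that passed and in 6 of all 27457, and its half-site GGTCA is in 6 of the 18 against 35.2% of all. The E-box CACGTG is in 2 of the 18 against 5.79%, and the CCAAT box, read on either strand, in 8 of the 18 against 34.3%. The matches are descriptions of letters in these windows.

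**Figure D3:**
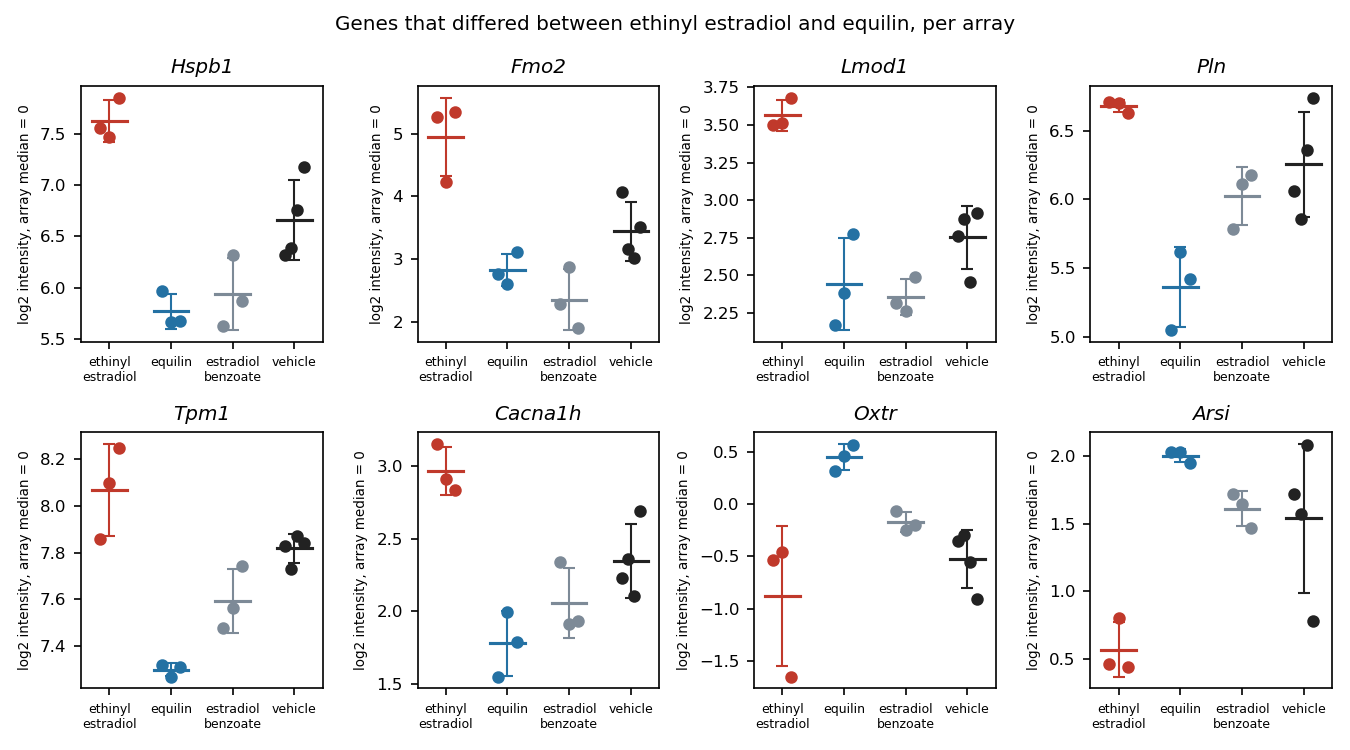
Log2 intensity, with each array's median at 0, of 8 genes that passed, for the 3 ethinyl estradiol, 3 equilin, 3 estradiol benzoate and 4 vehicle arrays; points are arrays, horizontal lines are group means and bars are SD. In the first 6 panels the ethinyl estradiol points lie above all equilin points, and in the Oxtr and Arsi panels they lie below them.

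Few genes were lower under ethinyl estradiol. Oxtr, the oxytocin receptor, an estrogen-responsive gene, read -0.54, -0.46 and -1.65 under ethinyl estradiol against 0.32, 0.46 and 0.56 under equilin. The vehicle arrays, at -0.91 to -0.30, overlapped ethinyl estradiol and lay below equilin. The difference was -1.33 ± 0.26 with limma's adjusted p = 0.0488, and without ethinyl estradiol array 3, the lowest, it was -0.94 and did not pass. Arsi, an arylsulfatase, read 0.47, 0.80 and 0.45 against 2.02, 2.03 and 1.95, a difference of -1.43 ± 0.27. Pfkl, a phosphofructokinase subunit of glycolysis, read 4.26, 4.30 and 4.53 against 5.53, 5.74 and 5.92, but its other probe differed by 0.10 ± 0.17. Muc20, a mucin read by a dim probe, differed by -0.92 ± 0.18, with means of -2.08 under ethinyl estradiol and -1.15 under equilin.

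The estrogen-responsive list held differences in both directions. Of its 30 tested genes Oxtr alone passed, 2 were higher and 3 lower at an unadjusted p under 0.05 (8.03% and 2.26% of all genes), and the median difference was -0.12. Esr1, estrogen receptor alpha, differed by 0.10 (95% interval -0.37 to 0.56) and Esr2, estrogen receptor beta, by -0.17 (-0.49 to 0.15, another probe 0.16). Pgr, the progesterone receptor, differed by -0.29 (-0.65 to 0.07). Fkbp5, a co-chaperone of steroid receptors that glucocorticoids raise, read 4.08, 3.78 and 3.18 against 2.37, 1.84 and 2.74, a difference of 1.36 ± 0.31 that did not pass (limma's adjusted p = 0.0868). Vehicle arrays read 2.87 to 3.25 for Fkbp5. Tsc22d3, a glucocorticoid-induced gene, differed by 1.43 ± 0.49, Nr3c2, the mineralocorticoid receptor, by 0.55 ± 0.18 and Nr3c1, the glucocorticoid receptor, by 0.04 ± 0.23. In the list of local steroid metabolism and glucocorticoid response 0 of 17 genes passed by limma, with 4 higher and 1 lower unadjusted (8.03% and 2.26% of all genes). The median was 0.21, and 0.01 with quantile normalisation. The lower gene, Hsd11b2, which inactivates glucocorticoids, differed by -0.67 ± 0.25.

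Relaxing and constricting pathways held single genes with large differences and no passing call. Ptgis, prostacyclin synthase, read 5.10, 4.97 and 5.02 under ethinyl estradiol against 3.96, 4.15 and 4.13 under equilin (0.95 ± 0.21, limma's adjusted p = 0.0772). Prkg1, the kinase that carries the cyclic GMP signal of nitric oxide, differed by 1.15 ± 0.26 (0.61 with the offset of 0.5 times the median), and the soluble guanylyl cyclase subunits Gucy1a1 and Gucy1b1 by 1.09 ± 0.32 and 0.72 ± 0.29, a dimmer Gucy1a1 probe giving 0.36. Nos3, the endothelial nitric oxide synthase, differed by -0.03 (95% interval -0.62 to 0.55). In that list 0 of 32 genes passed by limma, 5 were higher and 0 lower unadjusted (8.03% and 2.26% of all genes), and the median was 0.04, below the 0.10 of all genes. Among receptors of vasoconstrictors, Npy1r, for neuropeptide Y, read 5.05, 4.89 and 4.69 against 3.15, 2.76 and 3.29 (1.81 ± 0.36, limma's adjusted p = 0.0519), Agtr1b, for angiotensin II, differed by 1.49 ± 0.39 (0.78 with the offset of 0.5 times the median) and Avpr1a, for vasopressin, by 1.24 ± 0.41. Vehicle arrays spanned 3.84 to 5.68 for Npy1r, and its dimmer probe gave 0.32 ± 0.33. Aplnr, the apelin receptor, differed by -1.17 ± 0.41 and Adra2a, an alpha-adrenergic receptor, by -0.85 ± 0.33. Of that list of 27 genes 0 passed by limma, with 4 higher and 3 lower unadjusted (8.03% and 2.26% of all genes).

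Interferon-inducible genes gave a pair of passing calls. Isg20, an interferon-induced exonuclease that is no member of the list, passed, at 2.80, 2.92 and 3.16 under ethinyl estradiol against 2.04, 1.93 and 1.59 under equilin, a difference of 1.11 ± 0.20. Zbp1, an interferon-induced sensor of nucleic acids, also outside the list, passed at 1.18 ± 0.21. Its probe is dim, with means of -0.70 under ethinyl estradiol and -1.88 under equilin. Of 33 list members 0 passed by limma, and 9 were higher and 0 lower at an unadjusted p under 0.05 (8.03% and 2.26% of all genes), with a median of 0.31 against 0.10 for all genes. Quantile normalisation gave 7 higher and 0 lower (5.18% and 5.05% of all genes), with a median of 0.27. Oasl and Oas1b, of the oligoadenylate synthetase family, differed by 0.98 ± 0.26 and 1.58 ± 0.49 (Oas1b 1.04 with the offset of 0.5 times the median), while Ifit1 differed by -0.12 (95% interval -0.58 to 0.35) and Irf7 by -0.08 (-1.04 to 0.88).

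The remaining genes that passed with ethinyl estradiol higher belong to varied groups. Map1b, a microtubule-associated protein, read 3.03, 2.76 and 2.57 against 0.76, 1.18 and 0.97, a difference of 1.82 ± 0.33, and its brightest probe gave 1.04. Vehicle arrays read 1.93 to 2.39 for Map1b. Cdh6, a cadherin, differed by 0.92 ± 0.15, Rasl11b, a Ras-like protein, by 1.11 ± 0.22 and Akap1, which anchors protein kinase A at mitochondria, by 0.95 ± 0.19. Atoh8, a helix-loop-helix transcription factor, read 2.40, 2.42 and 1.89 against 1.16, 1.44 and 1.12. Zc2hc1a differed by 1.10 ± 0.21. Atosa differed by 1.07 ± 0.19, and its levels of 5.02, 4.76 and 4.89 under ethinyl estradiol lay above those of vehicle, at 3.33 to 3.94, while equilin at 3.53, 3.84 and 4.10 overlapped them. Its other probe gave 0.66.

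The vehicle mean lay between both estrogen means for 23 of the 25 probes, and was nearer to ethinyl estradiol for 14 and nearer to equilin for 11. The estradiol benzoate mean was nearer to equilin for 24 of the 25, Pln being the exception. These positions are descriptions, since the probes were chosen for the difference between the other two groups.

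Several other programmes held no passing call between the estrogens. Of 26 genes of fatty acid synthesis 0 passed by limma, with 1 higher and 0 lower unadjusted (8.03% and 2.26% of all genes) and a median of 0.19. Acaca, acetyl-CoA carboxylase, differed by -0.02 (95% interval -0.73 to 0.69), Scd, stearoyl-CoA desaturase, by 0.50 (-0.24 to 1.25) and Me1, malic enzyme, by 0.53 (-0.00 to 1.06; another probe 0.07). Mitosis genes had a median of -0.11, with 0 of 31 passing by limma and 2 lower unadjusted (2.26% of all genes). Top2a, a topoisomerase of dividing cells, differed by -0.46 (-0.92 to -0.01). In the extracellular matrix list 0 of 45 passed by limma, with 4 higher and 3 lower unadjusted (8.03% and 2.26% of all genes) and a median of -0.05. Quantile normalisation gave 3 higher and 9 lower (5.18% and 5.05% of all genes), with a median of -0.17. Postn, periostin, leaned lower at -0.56 ± 0.23, and Ccn2, a matricellular growth factor, leaned higher at 1.18 ± 0.39. Oxidative phosphorylation genes had 0 of 43 at an adjusted or an unadjusted p under 0.05 by limma, with a median of 0.16. With quantile normalisation 2 were lower (5.05% of all genes), with a median of -0.04. Across all genes the 95% interval lay within 1 log2 unit of 0 for 68.8%, and its median half-width was 0.54, or 1.45-fold.

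Endothelial genes had a median of -0.04, with 0 of 16 at an unadjusted p under 0.05 by limma (8.03% of all genes higher and 2.26% lower). With quantile normalisation 3 were lower, against 5.05% of all genes, and the median was -0.22. The endothelial list levels overlapped (-0.15 to 0.02 under ethinyl estradiol, -0.07 to 0.01 under equilin). Adipocyte genes had a median of -0.33, with 0 of 20 passing by limma and 3 lower unadjusted (2.26% of all genes). With quantile normalisation 5 were lower (5.05% of all genes). The 3 were Lep and Ucp1, which read below the array median, and Gpd1, which was low in ethinyl estradiol array 2. The fat cell markers Adipoq, Cfd and Fabp4 differed by -0.28, -0.94 and 0.20. Cfd read 8.08, 8.43 and 5.43 under ethinyl estradiol against 8.04, 8.30 and 8.41 under equilin. Ethinyl estradiol array 3 thus carried the Cfd difference. Levels of the adipocyte list did not overlap (-0.25 to -0.09 against 0.12 to 0.17), and vehicle arrays spanned -0.10 to 0.17 for it. This was not particular to fat cell genes. The mitosis list (-0.29 to -0.22 under ethinyl estradiol against -0.16 to -0.09 under equilin) did not overlap either. Nor did the clock list (-0.06 to 0.07 against -0.35 to -0.20), and further lists behaved likewise. Macrophage and dendritic cell genes had 2 of 25 lower and 0 higher unadjusted (2.26% and 8.03% of all genes), and 0 passed by limma. With quantile normalisation 5 were lower (5.05% of all genes). Levels of this list were -0.28 to -0.17 under ethinyl estradiol against -0.15 to -0.11 under equilin. Csf1r and C1qa, which define macrophages, averaged 5.38 and 5.38 under ethinyl estradiol and 5.41 and 5.56 under equilin. The macrophage markers Cd68 and Cd163 went the other way, with means of 3.54 and 1.12 under ethinyl estradiol and 3.43 and 1.01 under equilin. In bulk tissue fewer cells of a type and less RNA per cell cannot be told apart, and the part of these lists in the smooth muscle difference was not tested. Pancreatic acinar genes, of an organ next to the artery, read high in ethinyl estradiol array 3 and in no other of the 6 arrays compared: the list level was -1.33, -1.64 and 4.92 under ethinyl estradiol and -1.34 to -1.02 under equilin. Vehicle arrays spanned -1.76 to 2.20 for that list. Without ethinyl estradiol array 3 the smooth muscle median was 0.76, with 16 of 32 genes higher and 1 lower at an unadjusted p under 0.05. In that fit 6.3% of all genes were higher.

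**Figure D4:**
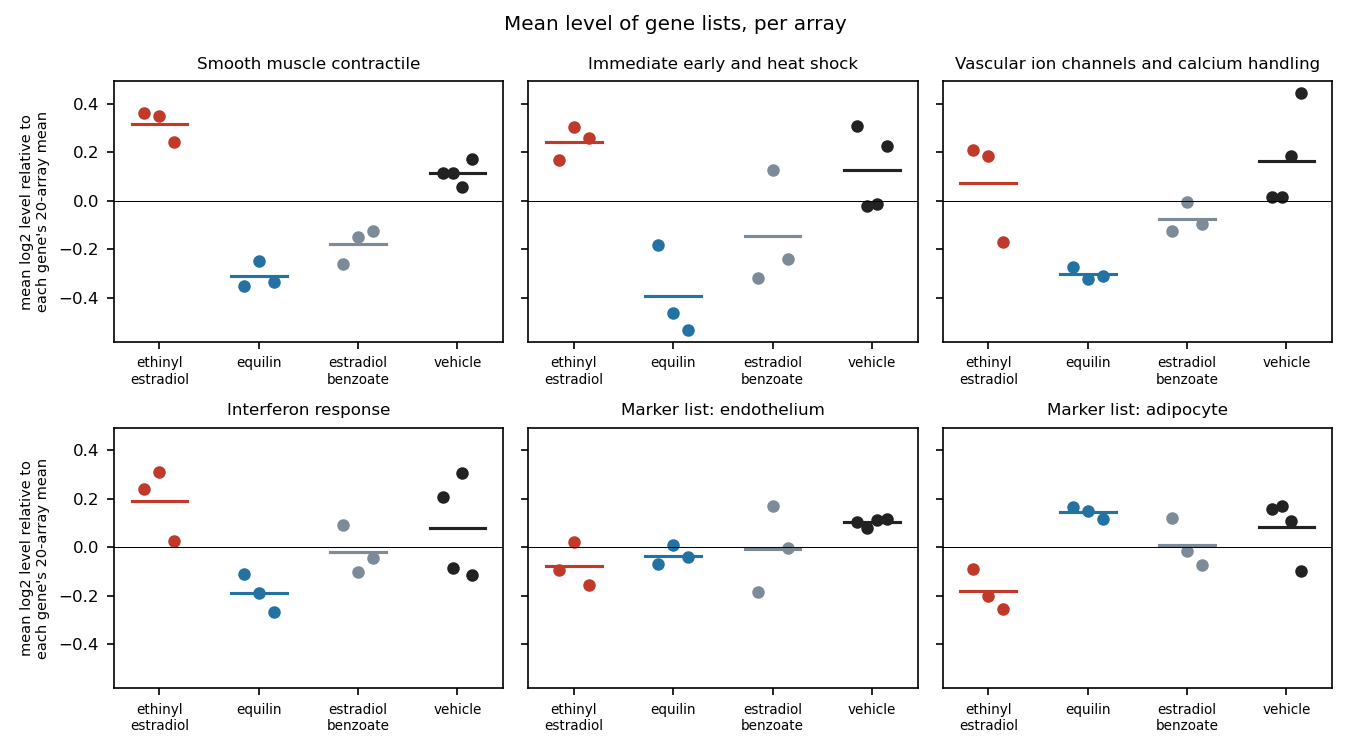
Mean log2 level of 6 gene lists relative to each gene's average over all 20 arrays, with points for arrays and lines for group means. The smooth muscle, heat shock, ion channel and interferon lists lie higher under ethinyl estradiol than under equilin on this scale, the adipocyte marker list lies lower, and the endothelial marker list overlaps.

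Single arrays decided some of the larger differences that did not pass. Per2, a clock gene, read 5.06, 5.06 and 5.22 under ethinyl estradiol and 1.12, 4.09 and 4.47 under equilin, so that 1 equilin array carried most of a difference of 1.89 ± 0.55. Ctss, the macrophage protease cathepsin S, read 3.84, 3.63 and 0.15 against 4.24, 4.18 and 4.11. Ccnd1, cyclin D1, read 3.23, -1.41 and 3.59 against 3.59, 3.66 and 3.32, and Gpd1, a glycerol phosphate dehydrogenase of fat, 6.75, 3.13 and 6.97 against 7.09, 7.20 and 7.04. Of 10191 genes, 245 read over 2 log2 units below both other arrays of their group in ethinyl estradiol array 3, 97 in array 1 and 70 in array 2, against 20, 1 and 0 in equilin arrays 1, 2 and 3. For the 25 probes with 1 symbol that passed, no array departed so far from its group.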

How the data were processed

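The series table holds deposited linear intensities, 1 column per array; array medians of 1.0007 to 1.0612 point to scaling before deposit, and some intensities are negative. The design text names GenePix Pro 5.0, Acuity 3.1 and GeneSpring 7.1; the program that made the values and the background method are not stated in these sources. Negative intensities became 0; the log2 of each intensity plus 0.103 (0.1 of the median) was taken, then each array's median subtracted. The offset understates changes of dim genes. Probes missing in over 1 array of a group (40) and the lowest 30% by mean were left out. limma 3.58.1 in R 4.3.3 fitted 6 group means over all 20 arrays with a variance trend, and the code was tested on simulated data. Probe symbols came from the platform annotation: 165 probes with several symbols and 18099 with none are unnamed here, and 16836 matched a current gene identifier. Named were up to 15 highest and 15 lowest passing probes without overlap, all other passing probes with 1 symbol, up to 3 members of each list by p (2 for marker lists) and a fixed set of genes; other list members were named after their values were seen. The comparison, the 37 lists and the set of genes were chosen with earlier results of these data known. Alternatives covered scaling, offset, filter, variance model, arrays in the fit, replicate block and leaving out arrays. Ethinyl estradiol and equilin were the 1 pair of compounds compared here, and no adjustment was made for the choice of this pair among others.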

Additional observations from a re-analysis of the deposited data

Results flagged for a closer look

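In the vehicle group, the only group used here with 4 arrays, 62 values (25 probes that passed and 37 list levels) were tested for an array far from the others, of which chance marks about 1 in 20. For Rasl11b, vehicle array 4 read 4.94 against 4.18 to 4.30 in the other 3, a gap of 0.841 of the range. For the lymph node and intestinal epithelium marker list, vehicle array 1 stood at -0.06 against 0.11 to 0.14 in the others, a gap of 0.857 of the range. Rasl11b passed between ethinyl estradiol and equilin (adjusted p = 0.0488 by limma), and its vehicle values enter that test through the spread shared by all groups.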

How the results depend on the processing

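Against 43 probes as fitted, 22 passed with quantile normalisation (20 of them among the 43), 22 with no filter on dim probes, 390 with only the 9 estrogen arrays, 301 without raloxifene array 3, 1763 with array weights and 0 with only the 6 arrays compared (3472 unadjusted by limma). Leaving out 1 of the 6 arrays gave 2 to 35. Leaving out raloxifene array 3 and ethinyl estradiol array 3 together, chosen after seeing the data, gave 283. The replicate block gave 0 (2334 unadjusted by limma). Same-numbered arrays deviated with correlations of -0.05, -0.11 and -0.05, which gave no sign of pairing by number. So few arrays cannot settle whether the numbers pair the rats. No centring, either other offset, the stricter filter, no variance trend and leaving out the regularly spaced probes gave 36 to 58. Fits with fewer arrays have fewer residual degrees of freedom, but their counts were in part smaller and in part larger than 43. The causes were not tested. Of the 25 named probes that passed, 8 still passed with quantile normalisation and 9 with no filter on dim probes. All 25 kept their sign in every fit that tested them (20 of 20 under the stricter filter). The smooth muscle median ran from 0.50 to 0.76 over all fits, with 15 to 22 members higher unadjusted. The share of all genes higher unadjusted ran from 5.06% to 20.6% over these fits. Of list medians over all alternatives, 707 moved by under 1 SD and 70 by more. Dim probes limit what can be seen, since the offset compresses their differences.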

Other observations

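Among 19 clock genes, with Per2 as described above, Cry1, a repressor of the clock, differed by 0.83 ± 0.31 and Tef, a clock-controlled transcription factor, by 0.52 ± 0.23, and 0 passed by limma. Those 3 were higher and 0 lower unadjusted (8.03% and 2.26% of all genes), and the list median of 0.20 lay 0.10 above that of all genes. Bmal1, which opposes the Per and Cry genes in phase, differed by -0.21 ± 0.23, and its other probe by 0.04. Among 19 basement membrane genes Col18a1 read 3.88, 4.12 and 4.08 under ethinyl estradiol against 2.92, 3.05 and 3.27 under equilin, and Lama5, a laminin chain, differed by 1.06 ± 0.28. Vehicle arrays, at 3.90 to 4.25 for Col18a1, lay with ethinyl estradiol. In that list 0 passed by limma, with 3 higher and 0 lower unadjusted (8.03% and 2.26% of all genes). Quantile normalisation gave 2 higher and 1 lower (5.18% and 5.05% of all genes).

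Members of growth factor and imprinted lists differed both ways without passing. Mest, an imprinted gene, read 2.02, 1.99 and 1.88 under ethinyl estradiol against 2.82, 3.03 and 3.68 under equilin, Nnat, neuronatin, differed by -0.66 ± 0.20 and H19, an imprinted non-coding RNA, by -0.43 ± 0.18. Of 13 imprinted growth genes 3 were lower and 0 higher unadjusted (2.26% and 8.03% of all genes), and 0 passed by limma. Of 23 genes of the growth hormone and IGF1 axis 5 were higher and 0 lower unadjusted (8.03% and 2.26% of all genes). By limma 0 passed, and quantile normalisation gave 3 higher and 1 lower (5.18% and 5.05% of all genes). In this axis Foxo3 differed by 1.09 ± 0.38 at its brightest probe, and dimmer probes gave -0.43 ± 0.21 and 0.40 ± 0.27. Igf1r, the IGF1 receptor, differed by 0.78 ± 0.33, while Igf1 differed by -0.47 (95% interval -1.67 to 0.73). Of 32 genes of Wnt, BMP and TGF-beta signalling 5 were higher and 2 lower unadjusted (8.03% and 2.26% of all genes), and 0 passed by limma. Quantile normalisation gave 3 higher and 4 lower (5.18% and 5.05% of all genes). The median of this list as fitted, relative to all genes, was -0.23. Its members include Id1, a target of BMP signalling, at 0.66 ± 0.16. Inhbb, an activin subunit of that list, read 1.12, 1.30 and 0.93 against 1.97, 1.89 and 1.94, and Has2, a hyaluronan synthase, differed by -0.81 ± 0.24.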
